A study of Mus musculus with 2 samples.

Results

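TCRα rearrangements that used a J gene from the 5′ end of the TRAJ cluster, TRAJ45 and those upstream of it (TRAJ46 to TRAJ61), were described in induced T cells (iT cells) of the thymus and the spleen. A clonotype, a group of reads with the same CDR3 nucleotide sequence at the V-J junction, was taken as a member when the first J gene listed for it was a TRAJ gene numbered 45 or higher. By this rule 890 of 6089 TCRα clonotypes were members in the thymus library and 1427 of 9583 in the spleen library, together 2317 of 15672. No member had a tied top J score. Both libraries came from the same kind of donor cell and host. Mouse embryonic stem cells on the C57BL/6 background (iR9-ESC), with a doxycycline-inducible Runx1-p2a-Hoxa9 cassette in the Rosa26 locus, were turned into induced hematopoietic progenitor cells in culture. These CD45.2+ cells were transplanted into irradiated immunodeficient B-NDG mice, which lack T, B and NK cells of their own, and all T cells analysed were therefore donor cells made in a host that supplied the thymus. The thymus cells were sorted as CD45.2+ cells lacking TCRγδ and markers of other blood lineages and carrying CD4 or CD8 alone. The spleen cells were sorted as CD45.2+ CD4 or CD8 single-positive cells with the naïve phenotype CD62L+ CD44-. The study's text calls the cells of both tissues naïve, but its gate for the thymus lists neither CD62L nor CD44. The labels give an input of 15000 sorted cells, and the sources used here do not say how many mice were pooled. Only TCR transcripts were amplified, so the T cell identity of the sorted cells could not be checked against other marker genes.

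The mouse Tcra locus holds many V genes upstream of a long row of J genes, with the constant gene Trac at its 3′ end. Genes of the delta locus lie between most of the V genes and the J genes, and some V genes serve both loci. The recombinase joins a V to a J directly, with no D gene, and the first joins are known to use the 5′ J genes together with V genes close to the J cluster. A second join on the same chromosome deletes the first one and pairs a V further upstream with a J further downstream, so that a cell can try more than 1 α chain before positive selection. The 5′ J genes are thus the ones used by early rearrangements and lost by later ones. Nucleotides that fit neither gene are added at the junction by terminal transferase, and a junction out of frame, or with a stop codon, encodes no chain.

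In the GENCODE annotation of GRCm38, the 17 members of the gene group lay on the plus strand of chromosome 14, over 17.89 kb of the 63.84 kb from TRAJ61 to TRAJ1. Most annotated TRAJ genes, 43 of 60, carry the Phe-Gly-X-Gly motif of the J region. It played no part in calling a join productive here, which rested on reading frame and stop codons alone. TRAJ44, outside the group, lacks it and had 77 of 90 thymus clonotypes called productive. This motif was found in 12 of the 17, and 5 of the 17 were annotated as pseudogenes. Genes the results turn on are shown: those with the most clonotypes or the most J-proximal V partners, TRAJ46, which has the motif but was not seen, and TRAJ61, which lacks it. The capitals mark the Phe-Gly-X-Gly motif; sequences are the annotated transcripts, 5′ to 3′.
TRAJ61, chr14:54155005-54155076, pseudogene without the motif: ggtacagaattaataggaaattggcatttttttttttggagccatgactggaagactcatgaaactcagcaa
TRAJ58, chr14:54157280-54157342: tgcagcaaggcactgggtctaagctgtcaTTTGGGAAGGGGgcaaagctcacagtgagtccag
TRAJ57, chr14:54158505-54158569: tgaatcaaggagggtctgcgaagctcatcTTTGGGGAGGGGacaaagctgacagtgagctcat
TRAJ56, chr14:54159263-54159325: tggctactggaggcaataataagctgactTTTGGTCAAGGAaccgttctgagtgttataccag
TRAJ53, chr14:54162644-54162709: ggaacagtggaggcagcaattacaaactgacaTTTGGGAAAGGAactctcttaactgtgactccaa
TRAJ49, chr14:54168686-54168747: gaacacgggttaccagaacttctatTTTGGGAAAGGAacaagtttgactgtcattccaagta
TRAJ48, chr14:54169808-54169868: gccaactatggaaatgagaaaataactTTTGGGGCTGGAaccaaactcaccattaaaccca
TRAJ47, chr14:54171800-54171856: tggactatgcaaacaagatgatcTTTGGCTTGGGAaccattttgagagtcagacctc
TRAJ46, chr14:54172336-54172398, not seen in either library: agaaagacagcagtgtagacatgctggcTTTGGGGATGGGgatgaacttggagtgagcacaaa
TRAJ45, chr14:54172828-54172890: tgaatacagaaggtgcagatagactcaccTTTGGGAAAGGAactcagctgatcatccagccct

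The 5′ TRAJ joins made up a similar part of the TCRα clonotypes in both tissues. Thymus members were 14.6% of all TCRα clonotypes (13.8% to 15.5%, Wilson 95% interval) and spleen members 14.9% (14.2% to 15.6%), and the difference, spleen minus thymus, was 0.274 percentage points (Newcombe 95% interval, -0.873 to 1.40). They held less of the reads than of the clonotypes, 106656 of 918063 TCRα reads or 11.6% in the thymus and 236278 of 1820314 or 13.0% in the spleen. In bulk transcripts, more cells of a clone and more TCRα RNA per cell cannot be told apart, and no molecular identifiers were stated, so the intervals and floors given cover counting only. With 1 library per tissue there is no replicate check, and the tissue cannot be told apart from its library or from any difference in mice or sorting gate. The median read count of a member was 78.5 (thymus) and 97 (spleen), beside 85 and 104 for clonotypes of all other TRAJ genes. Members of a single read numbered 45 and 74.

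Among the 17, 10 J genes carried nearly all of these joins. TRAJ49 led in both libraries, with 194 thymus clonotypes (24336 reads) and 310 spleen clonotypes (60941 reads), or 3.19% (2.77% to 3.66%) and 3.23% (2.90% to 3.61%) of TCRα clonotypes. TRAJ48 came next with 148 and 231 clonotypes, 2.43% (2.07% to 2.85%) and 2.41% (2.12% to 2.74%). Together these neighbouring genes were the only members above 2% of TCRα clonotypes in both libraries. TRAJ45 had 91 and 180 clonotypes, TRAJ56 had 86 and 120, and TRAJ50 had 78 and 95. TRAJ52 had 64 and 85, TRAJ58 had 62 and 84, TRAJ53 had 60 and 93, TRAJ57 had 57 and 100, and TRAJ47 had 48 and 118. In the thymus the intervals of TRAJ49 and TRAJ48 overlapped each other but not those of the other 8 genes, and in the spleen TRAJ49, with an interval from 2.90% to 3.61%, stood above TRAJ48, while those of TRAJ48 and TRAJ45 (1.63% to 2.17%) overlapped. Below them neighbours in the order overlapped in the thymus, where the lowest, TRAJ47, held 0.788% (0.595% to 1.04%). TRAJ45, the member at the edge of the rule, held 1.49% and 1.88% of TCRα clonotypes, and TRAJ44, the first gene outside it, held 1.48% and 1.50%.

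**Figure D1:**
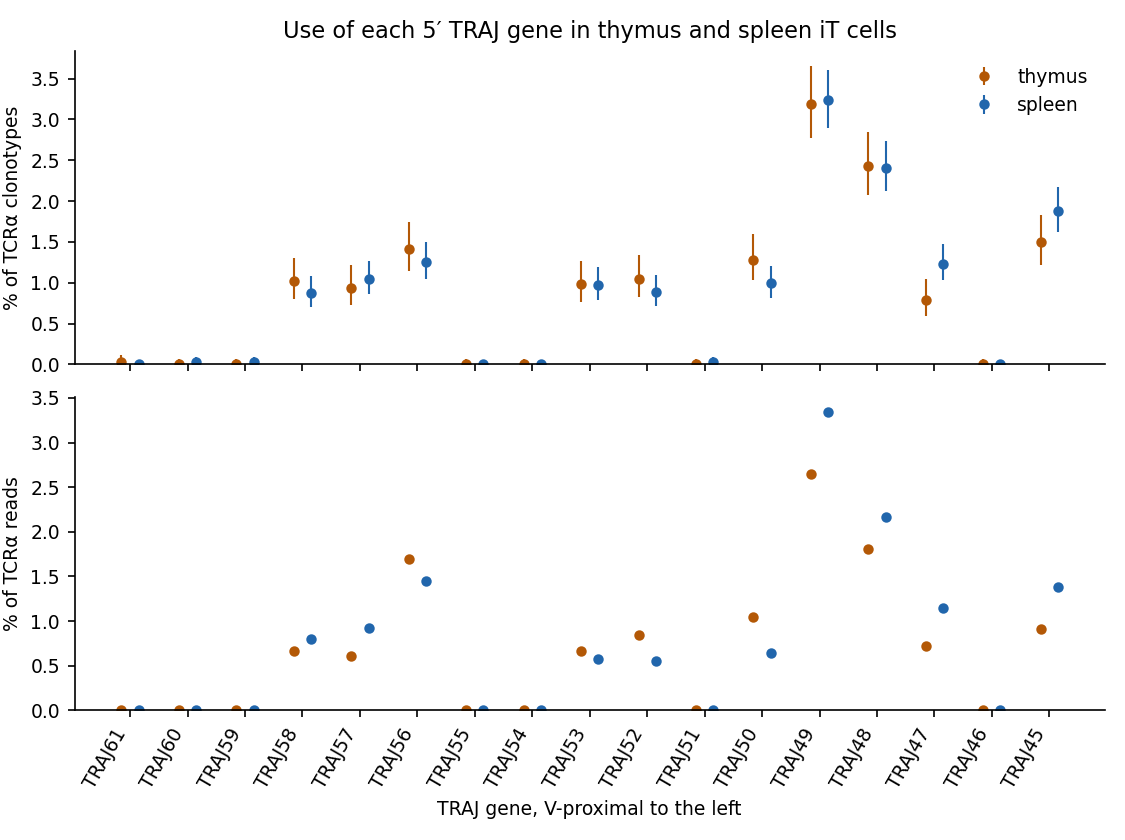
Share of TCRα clonotypes (upper panel, points with Wilson 95% intervals) and of TCRα reads (lower panel) that used each TRAJ gene from TRAJ61 to TRAJ45, in percent, for the thymus and spleen libraries. TRAJ49 and TRAJ48 are highest in both tissues, and 10 of the 17 genes carry nearly all joins.

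Within the group, the shares of single J genes lay close together in the thymus and spleen libraries except that of TRAJ47. TRAJ49 made up 21.8% of thymus and 21.7% of spleen members, and TRAJ48 made up 16.6% and 16.2%. TRAJ47 made up 5.39% and 8.27%, a difference of 2.88 points (0.736 to 4.89), and was the only gene among the 10 whose interval of the difference left out 0. These 10 intervals were not adjusted for their number. By reads the order moved with single clones: TRAJ56 held 9.66% of the member clonotypes but 14.6% of the member reads in the thymus, where 1 clonotype gave 44.7% of the TRAJ56 reads.

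TRAJ46 and TRAJ55 had no clonotype in either library, which allows up to 0.0493% of TCRα clonotypes in the thymus and 0.0313% in the spleen (3 clonotypes). TRAJ46 carried the motif in its annotated sequence, while TRAJ55 was a pseudogene without it. The other 5 genes, TRAJ61, TRAJ60, TRAJ59, TRAJ54 and TRAJ51, were named for 11 clonotypes with 13 reads in the spleen. In those 11, between 2 and 10 nucleotides of the CDR3 were aligned to the J gene, no constant gene was listed, and the CDR3 held a stretch of 34 to 35 nucleotides identical to the annotated Trac transcript. Their junctions thus held constant-region sequence beside a very short J match. The median of that stretch over the 1416 spleen clonotypes of the 10 used genes was 7 nucleotides, but the longest was 34. Fewer than 15 aligned J nucleotides were found in 16 spleen members (18 reads), those 11 included, and in 9 thymus members (206 reads). All of these stayed in the main counts, also those of insertions.

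TRAJ61 in the thymus was different in these respects. Its 2 clonotypes, with 43 and 3 reads, joined TRAV21/DV12 to this pseudogene with 35 and 34 aligned J nucleotides and with Trac listed as the constant gene. The germline gene shown above holds a run of 11 T, and the 2 CDR3 sequences, printed with the J-aligned part in capitals, differ in the length of that run.
TRAJ61 clonotype of 43 reads, out of frame: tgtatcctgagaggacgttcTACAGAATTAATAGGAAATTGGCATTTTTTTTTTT
TRAJ61 clonotype of 3 reads: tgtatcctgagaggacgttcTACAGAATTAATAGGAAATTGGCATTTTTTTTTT
Neither was found in the spleen. Whether they are 1 rearrangement read with a length error in the run was not tested.

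The V partners of 5′ TRAJ joins lay closer to the J cluster than those of other joins. V genes numbered TRAV17 or higher, which lie within 348 kb of TRAJ61, were joined in 94 of 890 members in the thymus, 10.6% (8.71% to 12.8%), and in 84 of 5199 clonotypes of all other TRAJ genes, 1.62%. The difference was 8.95 percentage points (7.06 to 11.2), with an adjusted p of 1.38e-33 (Fisher's exact test, two-sided, Benjamini-Hochberg over 6 tests). In the spleen they were joined in 238 of 1427 members, 16.7% (14.8% to 18.7%), and in 173 of 8156 other clonotypes, 2.12%, a difference of 14.6 points (12.7 to 16.6) with an adjusted p of 8.39e-95 by the same exact test. These tests take each clonotype as 1 unit within 1 library and say nothing of other mice.

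The middle J genes lay between the ends. With TRAJ24 to TRAJ44 the thymus share was 2.55% and the spleen share 3.58%, and with TRAJ23 and lower they were 0.435% and 0.353%. Members were above both sets in both libraries, by 8.01 and 10.1 points (thymus) and by 13.1 and 16.3 points (spleen), and the largest of these 4 adjusted p was 7.59e-20 (Fisher's exact test, two-sided, adjusted over 12 tests). Counted by reads, such pairs held 9.99% of the thymus and 18.3% of the spleen member reads, beside 1.45% and 2.19% of the other TCRα reads. The share among members was 6.12 points higher in the spleen than in the thymus (3.25 to 8.86). Among other joins it was 1.62% and 2.12%, and the ratio of the odds ratios, thymus over spleen, was 0.779 with an adjusted p of 0.542 (likelihood ratio chi-square test of the interaction in a logistic model over clonotypes, adjusted over 3 tests).

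Within the group the share was lower for J genes further from the V genes in the spleen, and less regularly so in the thymus. The 3 used genes closest to the V side, TRAJ58, TRAJ57 and TRAJ56, lie 2.275 to 4.258 kb from TRAJ61. In the spleen 27 of 84 TRAJ58 clonotypes, 32.1% (23.1% to 42.7%), 40 of 100 TRAJ57 clonotypes, 40.0% (30.9% to 49.8%), and 37 of 120 TRAJ56 clonotypes, 30.8% (23.3% to 39.6%), were joined to TRAV17 or a higher number. The intervals of these 3 overlapped. The share was 24.7% for TRAJ53, 18.8% for TRAJ52, 13.7% for TRAJ50, 10.6% for TRAJ49, 10.8% for TRAJ48, 5.93% for TRAJ47 and 8.33% for TRAJ45. Outside the rule it was 6.94% for TRAJ44, so the edge at TRAJ45 marked no step.

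In the thymus the same 3 genes were again high, at 22.6% (14.0% to 34.4%) for TRAJ58, 17.5% (9.82% to 29.4%) for TRAJ57 and 16.3% (9.95% to 25.5%) for TRAJ56. TRAJ47 had 16.7% on 8 of 48 clonotypes (8.70% to 29.6%), and TRAJ50 had 2.56% on 2 of 78. TRAJ53 stood at 3 of 60, 5% (1.71% to 13.7%), where the spleen had 23 of 93, 24.7% (17.1% to 34.4%). Between the libraries, the interval of the difference left out 0 for TRAJ57, TRAJ56, TRAJ53 and TRAJ50, higher in the spleen, and for TRAJ47, higher in the thymus. For TRAJ53 the difference, spleen minus thymus, was 19.7 points (8.15 to 29.9) and for TRAJ57 it was 22.5 (7.56 to 34.9). These intervals were not adjusted over the 10 genes.

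**Figure D2:**
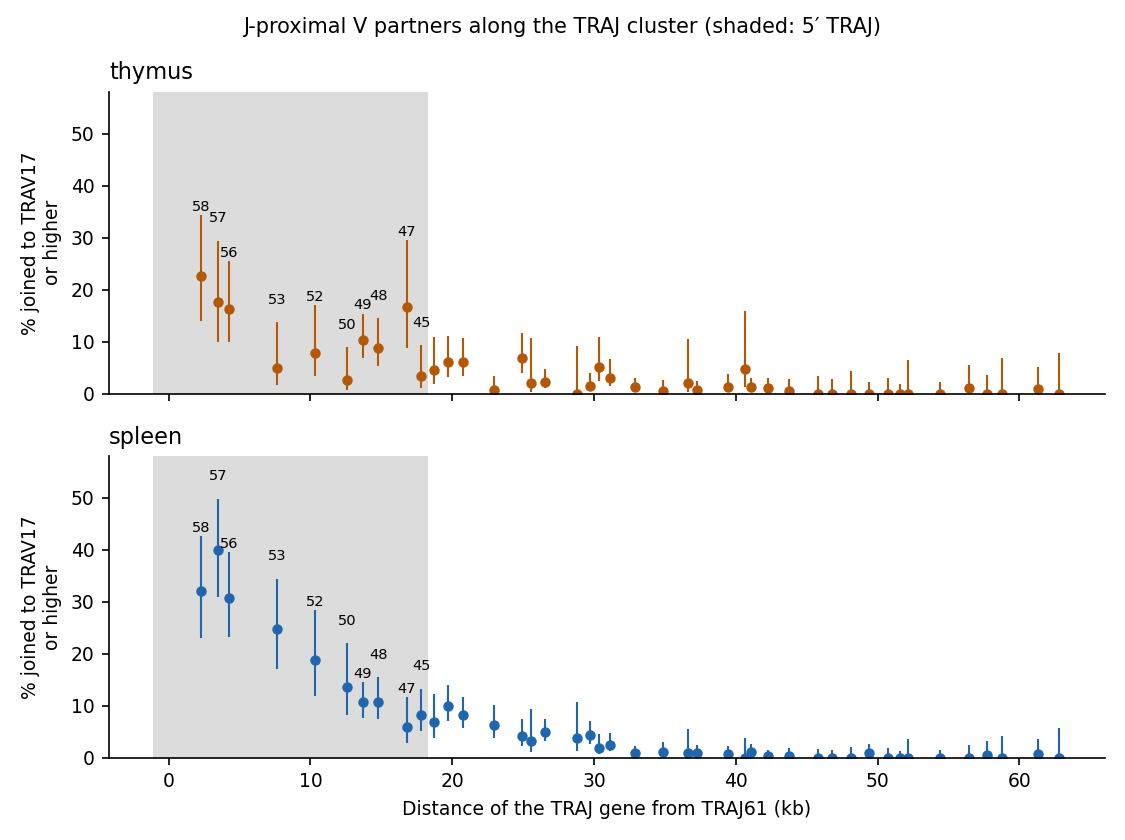
Percent of clonotypes joined to TRAV17 or a higher-numbered TRAV gene (Wilson 95% intervals) against the distance of the TRAJ gene from TRAJ61 in kb, for every TRAJ gene with at least 20 clonotypes in the thymus (upper) and spleen (lower) library; numbers name the genes of the shaded 5′ region. Among the 5′ genes, the spleen values run from 40.0% at TRAJ57 to 5.93% at TRAJ47, and the thymus value is lower than the spleen value for 9 of the 10.

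TRAV21/DV12, which can also serve as a delta V gene and lies 278 kb from TRAJ61, led the J-proximal partners. It was joined in 61 members in the thymus and 127 in the spleen, 6.85% and 8.90%, beside 0.808% and 0.920% of the other clonotypes, and 59.2% and 62.9% of all its TCRα clonotypes were members. TRAV19, 309 kb away, was joined in 26 and 92 members, 2.92% and 6.45%, beside 0.577% and 0.895% of the others. Most TRAV19 joins among the members were not productive: 11 of 26 and 38 of 92 were productive, 42.3% and 41.3%. The productive share of TRAV19 joins to other TRAJ genes is not given here. The leading V-J pair of the thymus was TRAV21/DV12 with TRAJ49, found 17 times, and 16 of the 17 were productive. The rest of the class was small: TRAV17 gave 1 and 12 members, TRAV18 gave 2 and 3, the pseudogene TRAV20 gave 4 and 3, and TRAV23 gave 1 unproductive member in the spleen.

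Further partners led by number were listed beyond that class. TRAV16N had 71 members in the thymus and 154 in the spleen, 7.98% and 10.8%, beside 2.73% and 2.67% of the others, and held 11.6% and 16.8% of the member reads. TRAV16N is 803 kb from TRAJ61 and has near-identical copies in the duplicated part of the V cluster. Its top score was tied with another gene in 0% of its members in both libraries. Of the TRAV16 genes only TRAV16N and TRAV16D-DV11 were listed, the latter 1107 kb away with 14 and 9 members. The lack of ties therefore does not show which copy was joined, since a copy that is never listed cannot tie. TRAV5-4, 450 kb away, had 55 and 70 members, 6.18% and 4.91%, beside 0.923% and 1.40%. TRAV6N-6 stood high by reads alone, with 7121 reads from 3 clonotypes in the thymus. The leading pair of the spleen, TRAV3D-3 with TRAJ45, had 27 clonotypes with 4154 reads, and in all 27 the top V score was tied with another gene. Ties in the top V score were found in 12.5% of members and 27.0% of other clonotypes in the thymus, and in 17.2% and 27.4% in the spleen.

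Delta V genes and the far V genes were also compared, as values without a test and chosen after they were seen. Genes named TRDV were joined in 50 members in the thymus and 98 in the spleen, 5.62% (4.29% to 7.33%) and 6.87% (5.67% to 8.30%), beside 0.692% and 0.723% of other clonotypes. TRDV1, 273 kb from TRAJ61, gave 36 and 61 of them, and TRDV2-2, 193 kb away, gave 10 and 30. Of these TRDV2-2 joins 4 of 10 and 29 of 30 were productive. TRAV1 and TRAV2, at the far end of the V cluster, were joined in 0 of 890 and 0 of 1427 members, which allows up to 0.337% and 0.210%, while other TRAJ genes had 29 and 28 such clonotypes, 0.558% and 0.343%.

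The positions of all V partners, as far as the listed names give them, showed the same order. The median V gene of members lay 556 kb from TRAJ61 in the thymus and 533 kb in the spleen. The median was 791 and 830 kb for TRAJ24 to TRAJ44, and 1063 kb in both libraries for TRAJ23 and lower. Where the top V score was tied, the first-listed gene set the position, and such ties were more common outside the group, as given above. How far this moved the medians was not tested. Thymus members used 92 V genes and made 373 V-J pairs, and spleen members used 101 V genes and made 424. By J gene the median ran from 450 kb for TRAJ58 to 649 kb for TRAJ50 in the thymus, and from 309 kb for TRAJ58 to 803 kb for TRAJ47 and TRAJ45 in the spleen. The value of 803 kb is the listed position of TRAV16N, and which of its copies was joined was not tested.

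**Figure D3:**
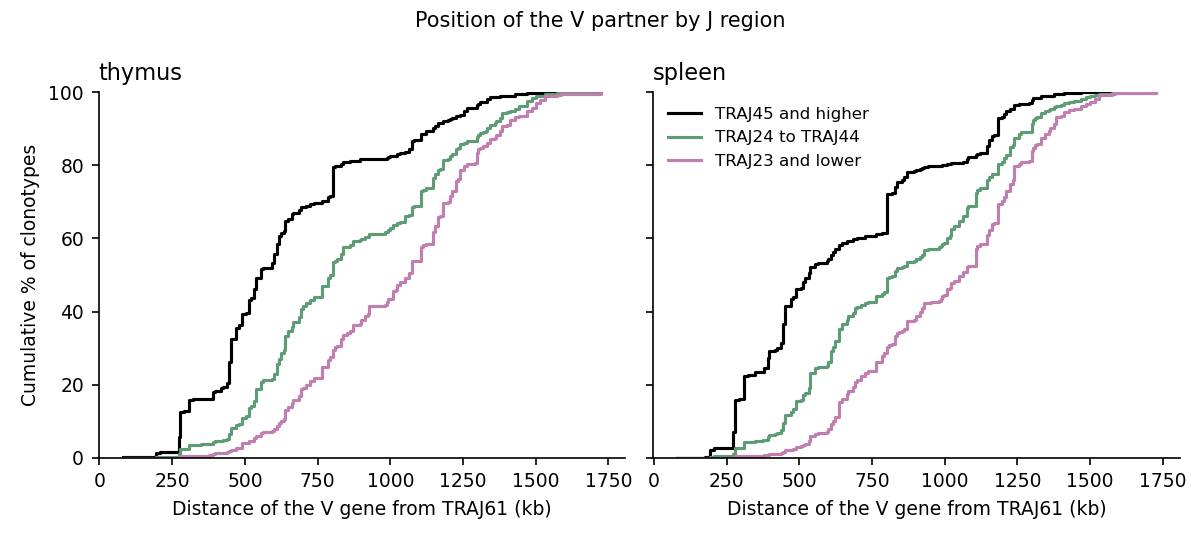
Cumulative percent of clonotypes against the distance of the first-listed V gene from TRAJ61 in kb, for joins to TRAJ45 and higher, TRAJ24 to TRAJ44 and TRAJ23 and lower, in each library. The medians lie at 556, 791 and 1063 kb in the thymus and at 533, 830 and 1063 kb in the spleen.

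No difference in the productive share, the joins in frame and without a stop codon, was detected between 5′ TRAJ joins and all others. In the thymus 673 of 890 members were productive, 75.6%, beside 74.5% of all other TRAJ clonotypes, a difference of 1.14 points (-2.01 to 4.10) with an adjusted p of 0.533. In the spleen 1014 of 1427 were productive, 71.1%, beside 69.1%, a difference of 1.94 points (-0.661 to 4.45) with an adjusted p of 0.287. Both are Fisher's exact tests, two-sided, adjusted over 6 tests, and neither difference passed the threshold. In the thymus the share passed it against TRAJ24 to TRAJ44, which had 71.4% (adjusted p = 0.0349, exact test adjusted over 12), but not against TRAJ23 and lower, which had 78.4% (adjusted p = 0.146). In the spleen the members were at 71.1% and those sets at 69.1% each, with an adjusted p of 0.210 for both exact tests. Nearly all unproductive members were out of frame, 209 in the thymus and 409 in the spleen, while 8 and 4 held an in-frame stop codon.

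The share varied more among the 10 genes than between the group and the rest. TRAJ49 was highest in both libraries, with 171 of 194 thymus joins productive, 88.1% (82.8% to 92.0%), and 244 of 310 spleen joins, 78.7% (73.8% to 82.9%). TRAJ45 was lowest in both, with 56 of 91, 61.5% (51.3% to 70.9%), and 100 of 180, 55.6% (48.3% to 62.6%). Its unproductive joins were all out of frame, 35 and 80. The other 8 genes lay between 69.4% and 79.5% in the thymus and between 69.2% and 77.9% in the spleen, and their intervals overlapped. With the edge of the group set at TRAJ48, which leaves out TRAJ47 and TRAJ45, the spleen difference from other joins was 4.36 points with an adjusted p of 0.00554 (Fisher's exact test). The members' productive share was 4.56 points lower in the spleen than in the thymus (-8.18 to -0.841), and the contrast with other joins did not differ detectably between the libraries (ratio of odds ratios 0.969, adjusted p = 0.763, likelihood ratio chi-square test in a logistic model).

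Counted by reads, productive joins held 85.8% of the spleen member reads, beside 85.6% for other joins, and 80.2% of the thymus member reads, beside 85.4%. One out-of-frame clonotype decided the thymus value: without it the share was 85.8%, and without the largest clonotype of the other set that set had 83.4%. For insertion-free joins, leaving out the largest clonotype of the other set narrowed the thymus difference without reversing it. Productive member reads had 39.1%, beside 29.9% for other joins with that clonotype and 34.8% without it.

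No difference from other joins was detected in insertions. Among productive members, 225 of 673 in the thymus, 33.4%, and 424 of 1014 in the spleen, 41.8%, had no nucleotide between the aligned V and J ends. Such joins are called insertion-free here. Bases that an alignment covered past the germline end of V or J counted as aligned, so an insertion-free join can still hold non-germline bases. Other joins had 31.5% and 40.8%. The differences were 1.95 points (-1.81 to 5.87, adjusted p = 0.486) and 1.05 points (-2.22 to 4.36, adjusted p = 0.533) by Fisher's exact test, two-sided, and did not pass the threshold. Against TRAJ24 to TRAJ44 and TRAJ23 and lower, the 4 adjusted p lay between 0.139 and 0.924 (exact tests). Members had a median of 2 inserted nucleotides in the thymus (mean 2.17, SD 2.48, over 673 clonotypes) and 1 in the spleen (mean 2.05, SD 3.46, over 1014).

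The insertion-free share of members was higher in the spleen than in the thymus by 8.38 points (3.66 to 13.0), and the other joins had the 31.5% and 40.8% given above (ratio of odds ratios 1.05, adjusted p = 0.763, likelihood ratio chi-square test in a logistic model). By gene it ran from 24.5% for TRAJ52 to 53.2% for TRAJ53 in the thymus and from 30.0% for TRAJ45 to 51.8% for TRAJ56 in the spleen. For TRAJ53, 25 of 47 thymus joins (39.2% to 66.7%) and 32 of 67 spleen joins had no insertion, the latter 47.8% (36.3% to 59.5%). TRAJ45 had 28.6% and 30.0%, and TRAJ47 had 47.1% and 34.5%. For these 2 genes the deposited alignments start inside the annotated gene, giving the CDR3 29 of the 32 annotated nucleotides of TRAJ45 and 24 of the 26 of TRAJ47, and germline bases ahead of that start counted as inserted. Recounted from the annotated start, TRAJ45 had 32.1% (21.4% to 45.2%) and 36.0% (27.3% to 45.8%) without insertion and TRAJ47 had 50.0% (34.1% to 65.9%) and 40.2% (30.6% to 50.7%), so that the lowest value of the spleen was then the 31.7% of TRAJ52.

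**Figure D4:**
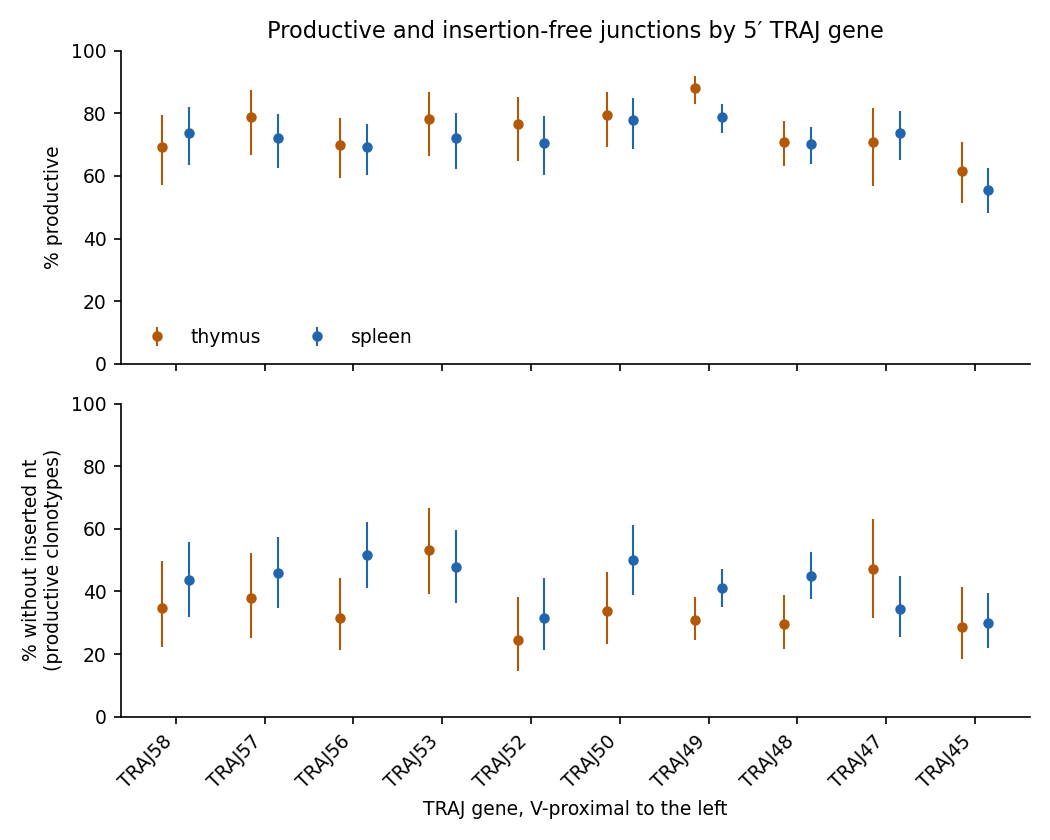
Percent of clonotypes that were productive (upper) and percent of productive clonotypes without inserted nucleotides (lower), with Wilson 95% intervals, for the 10 used 5′ TRAJ genes in both libraries. TRAJ49 is highest and TRAJ45 lowest in productive share in both tissues, at 88.1% and 61.5% in the thymus.

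Mean CDR3 length was mostly longer for J genes that give the CDR3 more nucleotides, with exceptions in the spleen. Productive members were on average 41.8 nucleotides long in the thymus (SD 4.79, 673 clonotypes) and 41.7 in the spleen (SD 4.75, 1014), and other joins were 40.4 in both (SD 4.82 and 4.80). TRAJ47, whose annotated sequence gives the CDR3 26 nucleotides, had the shortest mean, 37.8 (SD 3.47) and 39.0 (SD 3.84). TRAJ49, with 28, had means of 39.6 (SD 4.28 and 3.76), and TRAJ48, with 30, had means of 40.2 and 39.9. The 5 genes with 32, TRAJ58, TRAJ57, TRAJ56, TRAJ50 and TRAJ45, had means from 42.6 to 43.9 in the thymus and from 42.4 to 44.8 in the spleen. TRAJ53 gives 35 nucleotides and had means of 45.2 (SD 3.88) and 44.8 (SD 3.95). TRAJ52 also gives 35 and had means of 44.27 (SD 4.60) and 44.15 (SD 4.56). In the spleen, TRAJ58 (44.81) and TRAJ50 (44.80), which give 32, had longer means than TRAJ53 (44.78) and TRAJ52. Counted from the annotated start, TRAJ45 lost on average 4.33 J nucleotides in the thymus and 3.35 in the spleen, beside 4.81 and 3.91 for TRAJ48 and 2.19 and 2.64 for TRAJ47.

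**Figure D5:**
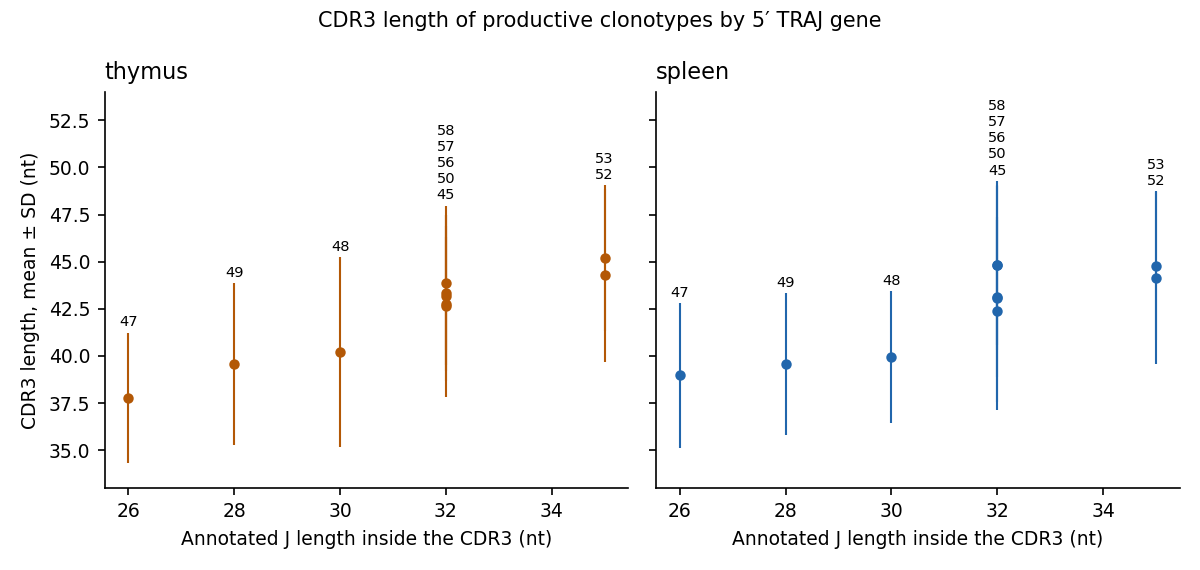
Mean CDR3 length of productive clonotypes in nucleotides (bars, SD over clonotypes) against the number of nucleotides that the annotated, untrimmed J gene gives to the CDR3; numbers name the TRAJ genes, listed from top to bottom where genes share a length. Means run from 37.8 at TRAJ47 to 45.2 at TRAJ53 in the thymus, and from 39.0 at TRAJ47 to 44.8 at TRAJ58 in the spleen.

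The largest clonotypes show how these joins look in sequence. They are printed with the J-aligned part in capitals. In the thymus, the largest had 6968 reads, 0.759% of TCRα reads (0.741% to 0.777%) and 6.53% of member reads. It was the third largest of all TCRα clonotypes there, was out of frame, and had 0 reads in the spleen. Its J alignment ran 2 nucleotides past the annotated start of TRAJ56.
TRAV6N-6 to TRAJ56, thymus, 6968 reads, out of frame: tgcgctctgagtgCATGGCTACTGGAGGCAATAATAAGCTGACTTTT
TRAV14N-1 to TRAJ49, thymus, 1009 reads: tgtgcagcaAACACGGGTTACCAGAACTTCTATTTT
TRAV16N to TRAJ47, thymus, 988 reads: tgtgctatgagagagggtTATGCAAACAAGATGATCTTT
TRAV6-7-DV9 to TRAJ49, spleen, 4260 reads: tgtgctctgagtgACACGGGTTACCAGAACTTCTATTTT
TRAV6N-7 to TRAJ49, spleen, 3278 reads: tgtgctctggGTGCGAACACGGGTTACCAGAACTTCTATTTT
TRAV13N-2 to TRAJ48, spleen, 2504 reads: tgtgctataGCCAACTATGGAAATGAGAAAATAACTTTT
TRAV16N to TRAJ48, 834 thymus reads and 1130 spleen reads: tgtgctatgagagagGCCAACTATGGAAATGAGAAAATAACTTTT

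Apart from the first, all of these were productive. Only the thymus TRAV16N to TRAJ47 clonotype had a nucleotide between the aligned V and J ends, 1, and it had 122 reads in the spleen. In 2 spleen clonotypes an alignment also ran past the germline end of its gene. The J alignment did so by 4 nucleotides in TRAV6N-7 to TRAJ49, and the V alignment by 4 in TRAV6-7-DV9 to TRAJ49. Such bases counted as aligned, not as inserted. The TRAV6-7-DV9 to TRAJ49 clonotype of the spleen, 0.234% of its TCRα reads, had 161 reads in the thymus. The TRAV14N-1, TRAV6N-7 and TRAV13N-2 clonotypes had 0 reads in the other library. The 10 largest members held 13.1% of the thymus and 9.65% of the spleen member reads.

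Some junctions were read in both tissues. The CDR3 of 92 thymus members, 10.3% (8.50% to 12.5%), was also among the TCRα clonotypes of the spleen, and that of 93 spleen members, 6.52% (5.35% to 7.92%), was among those of the thymus. For other joins these shares were 11.7% and 7.44%. Of the 92 members found under the same J gene in both, 74 had the same V gene listed too, 80 were productive and 56 had no inserted nucleotide. They held 13.0% of member reads in the thymus and, with 1 more, 14.2% in the spleen. Junctions read in both libraries held more of the reads of other joins, 28.1% in the thymus and 18.1% in the spleen. The TRAV16N to TRAJ48 clonotype was the only one among the 20 largest members of both libraries. Whether shared junctions are 1 clone in both tissues, separate joins with the same sequence, or reads carried between the libraries was not tested.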

How the data were processed

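TCR transcripts of 2 libraries of sorted iT cells, 1 of the thymus and 1 of the spleen, were amplified with a commercial mouse TCR kit and sequenced on a MiSeq. The authors converted the reads with bcl2fastq, aligned and assembled them with MiXCR against its own gene library (genome build not given in the sources used here), and deposited the read count of each clonotype, not normalized, with that count divided by the library total (a fraction), and the lowest base quality score of each CDR3. Depth was 2700370 reads (thymus) and 4585403 (spleen), of which 918063 and 1820314 were TCRα. The deposited fraction and quality score were not used.

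TCRα clonotypes were those whose first-listed J gene was a TRAJ gene, with no read minimum. The members and gene lists were chosen with earlier results of these data known. Inserted nucleotides were counted between the deposited aligned ends of V and J, and germline J lengths were taken from the annotation. Gene positions and J sequences are from GENCODE M21 (GRCm38), which matched 122 V and 53 J genes of the tables; V distances end at TRAJ61. The genes and clonotypes named were every TRAJ gene from 45 with a clonotype, the 3 largest member clonotypes of each library and those among the 20 largest of both, the 3 leading TRAV partners by clonotypes and by reads, and the leading V-J pair. Shares carry Wilson and differences Newcombe 95% intervals. Fisher's exact tests, and likelihood ratio tests of the library interaction, were adjusted by Benjamini-Hochberg at 0.05, and counting and merging were tested on simulated tables. Alternatives were a minimum of 2 or 10 reads, an edge at TRAJ48, merging of clonotypes 1 nucleotide apart and at least 20 times smaller, leaving out tied, shared, unproductive or pseudogene joins or the largest clonotype, weighting by reads, a class of V genes by position, at least 15 aligned J nucleotides, the annotated J start, and TRDV genes counted as J-proximal, the last 3 added after the data were seen. Python 3.11.15, numpy 2.4.6, pandas 2.3.3, scipy 1.17.1 and statsmodels 0.14.6 were used.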

Additional observations from a re-analysis of the deposited data

How the results depend on the processing

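The excess of V genes numbered TRAV17 or higher among 5′ TRAJ joins kept its direction and passed the threshold in every alternative with a test, 11 in each library. It lay between 8.45 and 24.9 percentage points in the thymus and between 12.4 and 29.4 in the spleen over 12 alternatives each, the highest with the 20% of the TRAV stretch nearest the J genes, within 487 kb of TRAJ61, as the class. The largest adjusted p were 2.43e-26 and 4.57e-56 (Fisher's exact test). The insertion-free share passed the threshold in none of its 18 tested alternatives (adjusted p from 0.0649 to 0.692), and the productive share in 1 of 16 (adjusted p from 0.00554 to 0.555), the spleen difference of 4.36 points with the edge at TRAJ48. That edge also moved the share of clonotypes to 12.3% and 11.8%, and the share of reads to 9.98% and 10.4%, in thymus and spleen, since it leaves out TRAJ47 and TRAJ45. The read share was 13.7% and 13.5% without clonotypes found in both libraries, 13.0% and 13.2% without the largest TCRα clonotype, 10.9% and 12.8% without the largest member, and 11.0% in the thymus over productive clonotypes. Weighted by reads, the thymus differences from other joins were -5.21 points for the productive share and 9.17 for the insertion-free share, and without the largest clonotype of each set they were 2.40 and 4.24. The ratios of odds ratios, none past the threshold (smallest adjusted p = 0.129, chi-square test in a logistic model), crossed 1 in 3 alternatives: to 1.05 for the productive share with at least 10 reads, 0.928 for insertions with the edge at TRAJ48, and 1.04 for V genes with the class set by position. The cause of these shifts was not tested. Of 280 values for single J genes under alternatives, 6 left their Wilson interval. No paired analysis was possible because each tissue has 1 library. Depth limits mostly the single J genes, of which the rarest used one had 48 clonotypes.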
